A study of Mus musculus with 48 samples.

Results

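The most abundant CD4+ T cell clones of Lewis lung carcinoma (LLC) tumors were followed into the tumor-draining lymph nodes (dLNs) of the same mice. A clone was a unique combination of V segment, J segment and nucleotide sequence of the complementarity-determining region 3 (CDR3) of the T cell receptor β chain (TCRβ). In each mouse, the frequency of a clone, its share of the reads of a library, was averaged over the 4 CD4+ tumor libraries, with 0 where it was not listed. The clones at a mean of 0.1% or more were selected. This gave 592 clones out of 86965 CD4+ tumor clones in 4 mice: mouse 5 gave 173 of 12928, mouse 6 gave 155 of 20618, mouse 7 gave 119 of 31417 and mouse 8 gave 145 of 22002. Their tumor frequencies therefore chose them, and are given as a description without a test. All 592 were listed in every one of the 4 tumor libraries of their mouse.

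The mice were female C57BL/6 animals (C57BL/6J in the study's methods) of 8 weeks, each carrying LLC tumors, a mouse lung carcinoma line, under the skin of both sides of the back, and were examined on day 13. The labels give no treatment beyond the tumor cells. The methods add an antibody given into the blood shortly before the end. In some mice, which they do not name, Evans Blue dye was also injected into the tumor. No tumor-free mice enter the comparison. Each tumor was cut into 2 fragments, giving for CD4+ T cells 4 tumor libraries (left fragments 1 and 2, right fragments 1 and 2) and 2 dLN libraries (left and right) per mouse, or 16 and 8 libraries in all. Tumor cells were sorted as TCRβ+ CD4+, and dLN cells as TCRβ+ CD4+ CD44hi, CD44 being high on T cells that have met antigen. Cells in both tissues were negative for other lineages and for an antibody given into the blood, so the tumor and dLN gates differed by CD44. The CD4+ tumor libraries held 411355 to 3041083 reads and the CD4+ dLN libraries 326582 to 1222582. The shallowest dLN libraries were the right one of mouse 5 (326582 reads) and the left one of mouse 8 (366290), and the other 6 held 907676 or more. A TCRβ library holds no other genes, so the CD4 label could only be examined against the CD8+ libraries: 133 of the 592 clones were listed in a CD8+ tumor library of their mouse, at no more than 0.816% of their CD4+ tumor frequency, and 0 were as frequent there.

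A T cell and its descendants share the TCRβ chain made when V, D and J segments are joined in the thymus. Bases are trimmed and added at these joints, so the CDR3, which contacts the peptide held by the MHC molecule, works as a tag for a clone. Naive CD4+ T cells meet tumor antigen on dendritic cells in the dLN, divide there and travel by lymph and blood into the tumor. In bulk libraries without molecular identifiers, more cells of a clone and more TCRβ RNA per cell cannot be told apart, and intervals cover counting error only.

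The sequences below are the CDR3 of the clones that the values turn on: in each mouse the 3 clones with the highest tumor frequency, the clone with the highest dLN frequency, and the most frequent tumor clone listed in neither dLN. Clones are named by mouse and by rank of tumor frequency, so that M7c1 is the first clone of mouse 7. Each is written 5′ to 3′ on the coding strand, from the codon of the conserved cysteine to that of the closing phenylalanine. Capitals mark the bases between the end of the V segment and the start of the J segment.
M5c1 (TRBV26/TRBJ1-1): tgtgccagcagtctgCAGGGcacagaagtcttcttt
M5c2 (TRBV13-2/TRBJ1-1): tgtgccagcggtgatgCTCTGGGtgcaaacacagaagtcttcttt
M5c3 (TRBV13-2/TRBJ1-3): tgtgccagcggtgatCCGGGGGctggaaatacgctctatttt
M5c11 (TRBV13-3/TRBJ2-4): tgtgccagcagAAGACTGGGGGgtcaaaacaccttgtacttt
M6c1 (TRBV1/TRBJ2-7): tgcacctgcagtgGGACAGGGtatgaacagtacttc
M6c2 (TRBV13-2/TRBJ2-1): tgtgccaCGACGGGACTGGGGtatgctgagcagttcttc
M6c3 (TRBV20/TRBJ2-1): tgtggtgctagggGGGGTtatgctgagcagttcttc
M6c16 (TRBV23/TRBJ1-1): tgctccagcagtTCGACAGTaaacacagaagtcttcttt
M6c9 (TRBV13-1/TRBJ2-1): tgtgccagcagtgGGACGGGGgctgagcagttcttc
M7c1 (TRBV14/TRBJ2-5): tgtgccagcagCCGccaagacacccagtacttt
M7c2 (TRBV4/TRBJ2-4): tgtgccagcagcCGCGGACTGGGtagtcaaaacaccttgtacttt
M7c3 (TRBV13-2/TRBJ2-4): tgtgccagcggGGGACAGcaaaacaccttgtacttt
M7c13 (TRBV13-2/TRBJ2-4): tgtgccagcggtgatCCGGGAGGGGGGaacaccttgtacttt
M8c1 (TRBV13-2/TRBJ1-2): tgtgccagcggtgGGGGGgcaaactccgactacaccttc
M8c2 (TRBV13-1/TRBJ2-4): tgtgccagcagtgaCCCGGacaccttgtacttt
M8c3 (TRBV1/TRBJ1-2): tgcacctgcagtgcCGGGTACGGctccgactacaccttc
M8c40 (TRBV5/TRBJ1-2): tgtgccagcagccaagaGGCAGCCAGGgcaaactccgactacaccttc
M8c8 (TRBV19/TRBJ2-5): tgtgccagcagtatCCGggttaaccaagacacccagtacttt

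A second set shows CDR3 that resembled each other between mice, described further below. Capitals here mark the bases that differ from the first sequence of each group. The first group used TRBV3 and 15 amino acids.
M6c35: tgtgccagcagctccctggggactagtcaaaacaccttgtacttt
M5c54: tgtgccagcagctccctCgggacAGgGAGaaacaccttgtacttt
M8c56: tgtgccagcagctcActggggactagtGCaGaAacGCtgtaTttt
M7c48: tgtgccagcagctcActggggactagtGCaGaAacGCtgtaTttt
M7c98: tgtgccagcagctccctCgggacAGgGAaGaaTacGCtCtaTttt

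The next group used TRBV13-1 and 11 amino acids.
M8c2: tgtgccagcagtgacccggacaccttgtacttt
M6c14: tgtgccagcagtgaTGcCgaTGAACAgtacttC
M6c31: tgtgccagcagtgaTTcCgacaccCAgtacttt
M5c59: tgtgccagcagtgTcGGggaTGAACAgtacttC
M5c69: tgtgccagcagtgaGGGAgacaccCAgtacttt
M5c96: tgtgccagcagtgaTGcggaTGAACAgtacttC
M8c87: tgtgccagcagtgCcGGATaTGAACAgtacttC
M5c135: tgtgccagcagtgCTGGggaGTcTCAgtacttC
M5c142: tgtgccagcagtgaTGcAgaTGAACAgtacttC
M5c166: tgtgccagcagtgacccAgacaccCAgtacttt

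The last group shown used TRBV13-2 and 14 amino acids.
M5c3: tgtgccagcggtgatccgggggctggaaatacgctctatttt
M7c13: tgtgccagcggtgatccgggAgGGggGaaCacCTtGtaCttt
M8c42: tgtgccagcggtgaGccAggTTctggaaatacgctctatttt
M8c46: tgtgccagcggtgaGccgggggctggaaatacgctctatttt
M5c61: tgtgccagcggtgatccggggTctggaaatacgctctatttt
M8c108: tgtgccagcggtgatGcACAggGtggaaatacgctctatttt
M7c103: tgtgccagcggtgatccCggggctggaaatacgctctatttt

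The selected clones were few and held a large share of the tumor repertoire. They were 0.379% to 1.34% of the CD4+ tumor clones of a mouse and took 39.7% ± 4.28 of the tumor reads (SD, n = 4 mice), from 35.5% in mouse 8 to 43.7% in mouse 5. Summed over the clones, the left tumors had 40.6% ± 5.18 and the right tumors 38.8% ± 3.46. Most lay near the threshold, the median per mouse lying between 0.166% and 0.175%, and 359 of 592 were under 0.2%. Only 14 clones reached 1%, 8 of them in mouse 7. Just inside the threshold were a TRBV16 clone of mouse 5 at 0.1001% and a TRBV5 clone of mouse 7 at 0.1002%, and just outside it were 2 TRBV13-2 clones at 0.0995%, from mice 6 and 5. The inner pair was listed in both dLNs and the outer pair in 1 dLN each.

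Most abundant tumor clones were found in a dLN of their own mouse. Of the 592, 461 were listed in both dLNs, 38 in the left alone, 37 in the right alone and 56 in neither. Clones listed in at least 1 dLN made up 85.5% of the selected clones in mouse 5, 94.2% in mouse 6, 91.6% in mouse 7 and 91.7% in mouse 8, or 90.8% ± 3.68 (SD, n = 4). Over all CD4+ tumor clones, 19.8% were listed in at least 1 dLN and 8.72% in both. In the dLNs of the other 3 mice, 1.16% to 7.74% of the selected clones were listed, 4.73% ± 1.03 when averaged for each of the 4 mice. Own and other dLNs did not overlap, and the difference was 86.0 percentage points (exact permutation test over 24 assignments of mice to dLN pairs, one-sided, p = 0.0417, the smallest it allows; 0.0694 after Benjamini-Hochberg adjustment over 5 tests).

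Less abundant tumor clones, from 0.01% to under 0.1%, were the nearest comparison. They numbered 4784, between 1087 and 1253 per mouse, and 74.98% ± 5.93 were listed in at least 1 dLN (SD, n = 4), from 67.3% in mouse 5 to 80.5% in mouse 7. The selected clones were above the less abundant clones in 4 of 4 mice and the ranges did not overlap. The difference was 15.8 percentage points (exact permutation test over 70 assignments of the 8 mouse values, two-sided, p = 0.0286, the smallest it allows; adjusted p = 0.0694). When values were paired by mouse (replicate block), an exact sign-change test gave p = 0.125, the smallest that 16 sign changes allow, so the difference passes neither the adjustment nor the paired test at 0.05. Listing in both dLNs ran from 71.0% to 84.0% of the selected and from 41.2% to 61.5% of the less abundant clones.

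**Figure D1:**
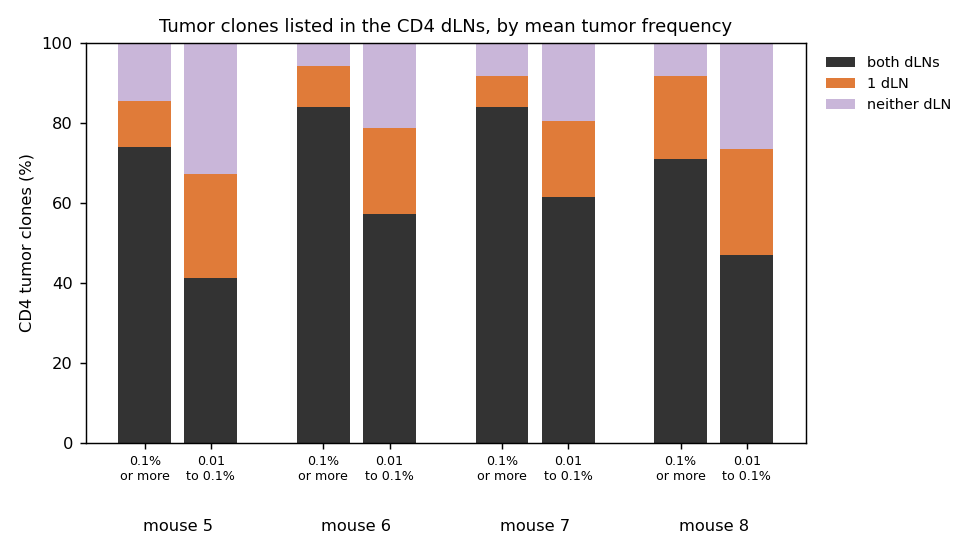
Share of CD4+ tumor clones (%) listed in both dLNs, in 1 dLN or in neither, for each of 4 mice (1 bar per mouse and frequency class, no error bars); left bars are clones at 0.1% or more of tumor reads and right bars clones from 0.01% to under 0.1%. The black part reaches 71.0% to 84.0% in the left bars and 41.2% to 61.5% in the right bars.

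The 56 clones listed in neither dLN were not confined to the rarer ones. They were 25 in mouse 5, 9 in mouse 6, 10 in mouse 7 and 12 in mouse 8, or 9.23% ± 3.68 of the selected clones (SD, n = 4). Between 0.1% and 0.2% of tumor reads, 36 of 359 clones (10.0%) were in neither dLN, and from 0.2% to 0.5%, 16 of 179 (8.94%) were. Among the 14 clones at 1% or more, 1 was. For an unlisted clone, the limit that a count of 0 allows (3 reads) lay between 0.000245% and 0.000919% of a dLN library. When a clone was counted as listed only from 1 estimated cell (frequency times the number of sorted cells), 70 clones were in neither dLN. Mouse 5, which had the shallowest dLN library, also had the most unlisted clones. With all dLN libraries drawn to 326582 reads, 25, 9, 11 and 12 clones of mice 5 to 8 were in neither dLN, or 57 in all. Drawing reads can only remove listings, so the count of mouse 5 could not fall. The numbers of sorted cells were not matched, and whether depth set the count of mouse 5 was not tested.

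M7c3, a TRBV13-2/TRBJ2-4 clone, was the most frequent of these. Its tumor frequencies were 2.92% and 2.72% in the left fragments and 1.44% in each right fragment, and no read of it was listed in either dLN. The right fragments of M7c3 lay under both left ones. Its mean tumor frequency was 7132-fold the limit in the dLNs, the mean of both sides. That limit counts reads and not sorted cells, so a missed cell could put this fold lower. In mouse 5 the corresponding clone was M5c11 (TRBV13-3/TRBJ2-4), at 0.482%, 0.797%, 0.577% and 0.541% in the 4 tumor libraries. M6c9 (TRBV13-1/TRBJ2-1) lay between 0.552% and 0.692%, and M8c8 (TRBV19/TRBJ2-5) between 0.493% and 0.655%. All 4 clones were thus present in every tumor fragment and listed in neither dLN library. For the last 3, the mean tumor frequencies were 959-fold, 2355-fold and 1059-fold the limit in the dLNs, which again counts reads.

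Clones listed in 1 dLN were scarce there. Over the 75 such clones the listing dLN held a median of 56 reads, from 3 to 804, or a median of 0.00639% and a highest value of 0.0886%, and 2 clones rested on 3 reads. Clones listed in both dLNs had a median mean dLN frequency of 0.0487%, from 0.00138% to 1.22%. The side was uneven in mouse 5, with 16 clones in the left dLN alone and 4 in the right alone, and in the other direction in mouse 8, with 12 and 18. In each of these mice the side with fewer clones had the shallower library. The counts in both mice were the same when the dLNs were drawn to equal reads, and the numbers of sorted cells were not matched. Mice 6 and 7 had 7 and 9, and 3 and 6.

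Whether a clone found in 1 dLN was skewed to the tumor of that side is described next, without a test, since these tumor frequencies entered the choice of clones. The mean log2 ratio of left over right tumor frequency was -0.0278 ± 0.0784 for clones listed in the left dLN alone and -0.0483 ± 0.1999 for those in the right alone (SD, n = 4 mice). The difference was 0.0205, smaller than both SDs. Leaving out 1 mouse moved it between -0.101 and 0.0828.

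The tumor frequency of the selected clones exceeded their dLN frequency in most cases. As the clones were chosen for their tumor frequency, the ratio was high in part by that choice, and no test was made. The dLN sample was also limited to CD44hi cells. Among the 536 clones listed in a dLN, the ratio of mean tumor over mean dLN frequency had a median of 5.26, with medians per mouse of 4.34, 5.67, 3.92 and 9.36 in mice 5 to 8. The less abundant clones that were listed had medians of 1.86 to 2.67 per mouse, and all listed CD4+ tumor clones 0.532 to 0.943. The ratio was above 10 in 188 clones and above 100 in 28. With the limit of 3 reads used in place of the dLN frequency of unlisted clones, the medians per mouse were 4.35 to 13.5.

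**Figure D2:**
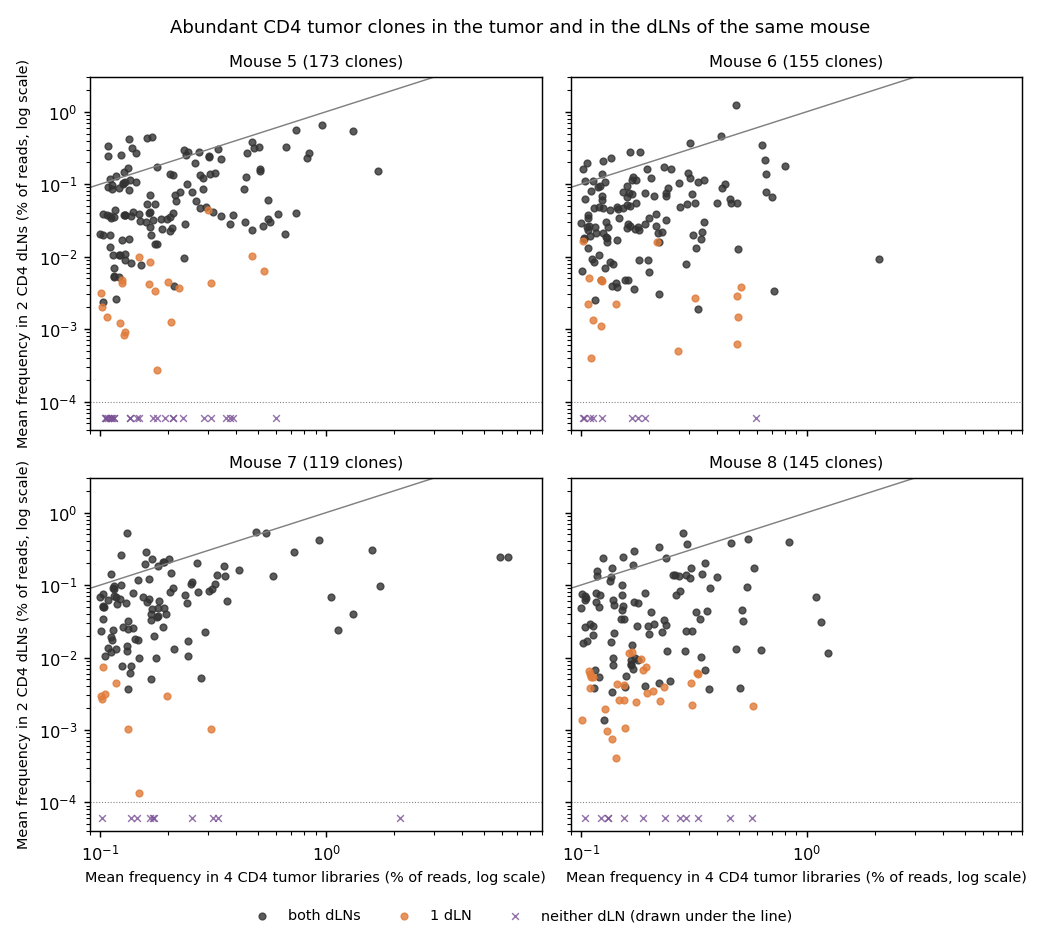
Mean frequency in 4 CD4+ tumor libraries (x axis, % of reads, log scale) against mean frequency in the 2 CD4+ dLNs (y axis, % of reads, log scale) for the 592 selected clones, 1 panel per mouse; colors give the number of dLNs that listed the clone, crosses under the dotted line are clones in neither dLN, and the solid line marks equal frequency. Most points lie under the line, and 49 of 592 lie above it.

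Within a tumor frequency class the dLN levels spread widely. Clones from 0.1% to 0.2% in the tumor had mean dLN frequencies from 0.000134% to 0.525%, and those from 0.2% to 0.5% from 0.000491% to 1.22%. Across the listed clones of a mouse, Pearson's r of log10 tumor and log10 dLN frequency was 0.374, 0.129, 0.367 and 0.204 in mice 5 to 8 (109 to 148 clones, which share their libraries, given as a description). The median ratio was 4.97, 5.30 and 4.82 in the classes under 1%. It was 24.2 for the 13 listed clones at 1% or more, with a range of 2.41 to 228.

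The top tumor clones of the 4 mice differed in how far they were seen in the dLNs. M5c1 (TRBV26/TRBJ1-1) was at 2.11%, 1.71%, 1.17% and 1.78% in the left and right tumor fragments, and at 0.147% in the left and 0.159% in the right dLN, a ratio of 11.1. M6c1 (TRBV1/TRBJ2-7) was at 2.13%, 2.02%, 2.05% and 2.17% in the tumor. In the left dLN it had 32 reads, or 0.00262% (95% exact interval of reads 0.00179% to 0.00369%). In the right dLN it had 180 reads, or 0.0158% (0.0135% to 0.0182%), which put its ratio at 228. These intervals treat reads as independent. On estimated cells, the left and right levels of M6c1 were not called different (Fisher's exact test, q = 0.390). The tumor levels of the leading clones of mice 5 and 6 were thus close, while both dLN levels of M6c1 lay under those of M5c1.

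M8c1 (TRBV13-2/TRBJ1-2) was at 1.19%, 1.22%, 1.25% and 1.31% in the tumor fragments. It was at 0.0117% in the left dLN (43 reads, 0.00850% to 0.0158%) and 0.0112% in the right (128 reads, 0.00933% to 0.0133%), a ratio of 108, and its dLN intervals overlapped. M6c3 (TRBV20/TRBJ2-1), at 0.717% in the tumor, was likewise rare in both dLNs, at 0.00393% and 0.00271%, a ratio of 216.

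Mouse 7 had the largest clones. M7c1 (TRBV14/TRBJ2-5) took 5.67% and 7.06% of the left fragments and 7.73% and 5.18% of the right ones, against 0.313% and 0.168% of the left and right dLN. M7c2 (TRBV4/TRBJ2-4) took 5.42%, 6.50%, 6.89% and 4.71% of the same fragments, and 0.277% and 0.209% of the dLNs. The order of the 4 fragments was the same for both clones. The ratios of mean tumor over dLN frequency were 26.6 and 24.2.

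Other leading clones had lower or intermediate ratios. M5c2 (TRBV13-2/TRBJ1-1), at 1.31% in the tumor, was at 0.497% and 0.590% in the left and right dLN, a ratio of 2.41. M5c3 (TRBV13-2/TRBJ1-3) was at 0.959% in the tumor and, at 0.713% and 0.598%, was also the selected clone with the highest dLN frequency in mouse 5. M6c2, M8c2 and M8c3 had ratios of 4.44, 37.2 and 16.1.

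Among the selected clones, 49 were more frequent in the dLNs than in the tumor: 16 in mouse 5 and 11 in each of the other mice. M6c16 (TRBV23/TRBJ1-1) had the highest dLN frequency of all, 1.13% in the left and 1.31% in the right dLN, against 0.483%, 0.448%, 0.505% and 0.502% in the tumor fragments. M8c40 (TRBV5/TRBJ1-2) was at 0.416% and 0.634% in the dLNs and at 0.155% to 0.338% in the fragments. M7c13 (TRBV13-2/TRBJ2-4) was at 0.726% in the left and 0.349% in the right dLN and at 0.396% to 0.590% in the fragments. None of the 49 reached 0.5% as a mean of the 4 tumor libraries, though single fragments of M6c16 and M7c13 did, and their lowest ratio was 0.250.

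The selected clones were also prominent within the dLNs. They took 17.1%, 10.1%, 10.2% and 8.90% of the left dLN reads in mice 5 to 8 and 12.2%, 9.86%, 9.31% and 8.09% of the right dLN reads. The dLNs of other mice held 0.0353% to 0.728% of their reads in the same clones, and these ranges did not overlap. Of the 10 most frequent CD4+ clones of the dLNs of a mouse, 8 or 9 were selected tumor clones, and of the 100 most frequent, 39 to 52 were. The left and right dLN shares, 11.6% ± 3.76 and 9.86% ± 1.71 (SD, n = 4), differed by 1.72 percentage points (exact permutation test over 70 assignments, two-sided, p = 0.543; adjusted p = 0.679). The left share was higher in 4 of 4 mice, which in the exact test paired by mouse gave p = 0.125, again its lower limit. Without mouse 5 the difference was 0.634 percentage points.

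In the same mouse the dLN frequencies of the 2 sides were close for most clones. Over the 461 clones listed in both dLNs, the median fold between the sides was 1.44 to 1.63 per mouse, and 151 clones were more than 2-fold apart. For the same clones in the tumor, the fold between the left and right tumors was 1.13 to 1.29, and 19 were more than 2-fold apart, 16 of them in mouse 5. Pearson's r of log10 frequencies between sides averaged 0.805 in the dLNs and 0.879 in the tumors over the same 100 to 130 clones of a mouse, given as a description. A dLN side was 1 library and a tumor side the mean of 2, so the folds rest on unequal sampling.

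Clones that differed between the left and right dLN were called on estimated cell numbers. The call used Fisher's exact test, q under 0.01 over all clones of both dLNs of a mouse and a fold over 2, so it compares 2 libraries and covers counting error only. It was met by 31 of the 592 clones: 17 in mouse 5, 4 in mouse 6, 6 in mouse 7 and 4 in mouse 8. Over all dLN clones the call was met by 0.32%. Calls rose with the dLN level: at 0.1% or more of dLN reads, 19 of 133 selected clones (14.3%) and 17 of 90 other dLN clones (18.9%) were called. From 0.01% to 0.1% these shares were 12 of 272 (4.41%) and 318 of 5327 (5.97%), and under 0.01% no clone of either kind was called. The share of selected clones was thus under that of other clones at the same dLN level, a difference that was not tested. In mouse 5, 16 of the 17 were higher on the left, and without mouse 5 there were 14 clones.

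Such differences reached the most frequent dLN clones. M8c4 (TRBV3/TRBJ2-7) was at 0.567% in the left and 0.214% in the right dLN (q = 8.93e-14), and M7c13 was 2.08-fold higher on the left (q = 1.63e-11). M7c92 (TRBV1/TRBJ2-4) was at 0.00748% on the left and 0.101% on the right, 13.5-fold apart (q = 2.00e-07). M8c4, M7c92 and the called clones in the next sentence were picked after their values were seen. M5c43, M6c52 and M6c152 were the called clones listed in 1 dLN, with 804, 388 and 377 reads there.

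**Figure D3:**
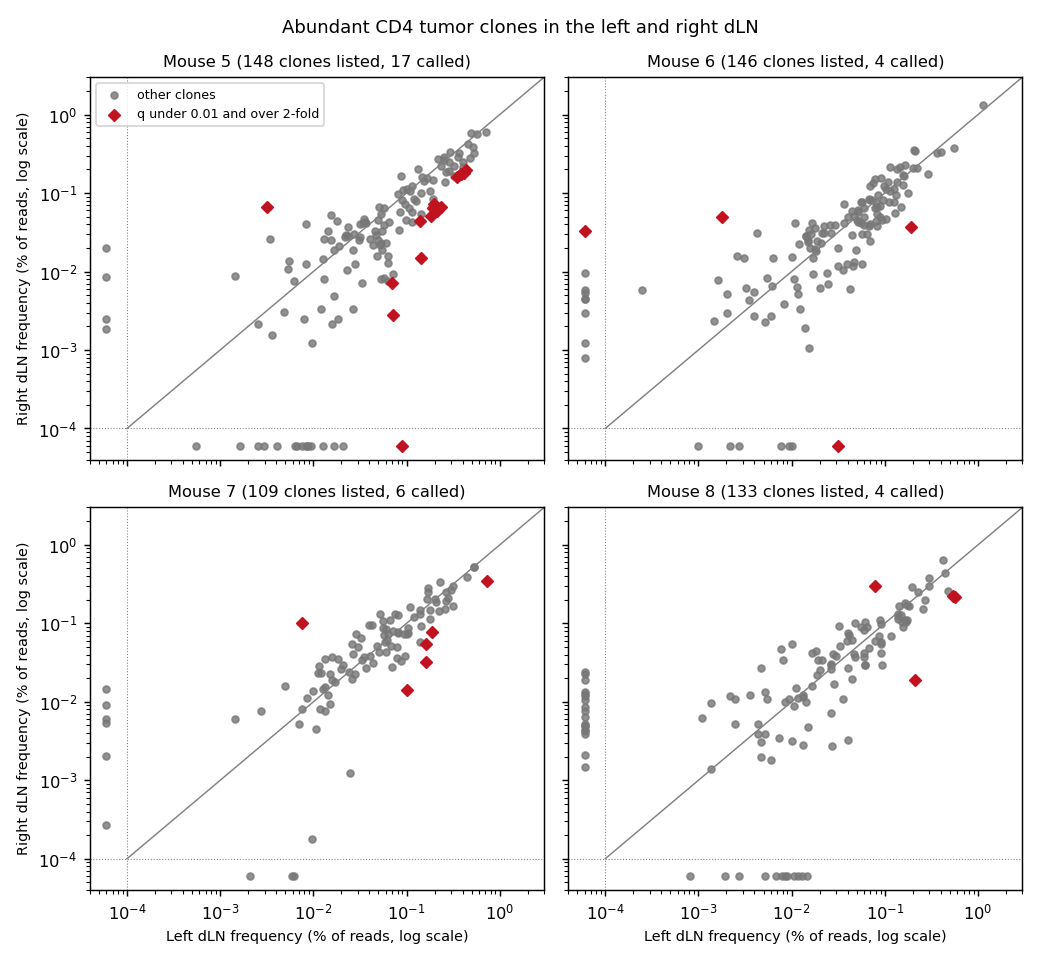
Frequency of the selected clones in the left (x axis) and right (y axis) CD4+ dLN (% of reads, log scales), 1 panel per mouse, each point 1 clone listed in at least 1 dLN; points beyond the dotted lines were not listed on that side, and red diamonds meet q under 0.01 and a fold over 2. In mouse 5, 16 of 17 diamonds lie on the left dLN side of the line of equal frequency.

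The selected clones used 21 V and 12 J segments. TRBV1 was the most common V segment, with 134 clones or 23.1% ± 8.21 per mouse (SD, n = 4): 18.5% in mouse 5, 29.7% in mouse 6, 30.3% in mouse 7 and 13.8% in mouse 8. In the less abundant clones it made up 13.2% ± 1.49, and it was higher among the selected clones in 4 of 4 mice. The difference of 9.88 percentage points was the largest of 31 segments but did not pass the test (exact permutation test, two-sided, p = 0.0571; adjusted p = 0.341). Of the 31 V and J segments tested, 0 differed at an adjusted p under 0.05 (0%) and 0 at an unadjusted p under 0.05 in the exact permutation test.

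TRBV13-2 followed with 70 clones (11.8% ± 1.37, against 13.5% ± 1.42 in the less abundant clones), then TRBV3 (8.10% ± 1.56 against 8.42% ± 0.880), TRBV13-1 (6.65% ± 2.44 against 6.48% ± 0.703) and TRBV15 (6.33% ± 2.12 against 5.34% ± 0.750). TRBV16, at 5.06% ± 2.74 against 7.56% ± 1.71, and TRBJ1-3, at 8.42% ± 1.75 against 5.98% ± 0.509, had the next largest differences, with adjusted p of 0.413 and 0.341 in the exact permutation test. TRBJ2-7 was the most common J segment (17.3% ± 5.35), before TRBJ2-4 (12.003% ± 0.821) and TRBJ1-1 (11.0% ± 3.40). In the GENCODE annotation of GRCm38 all of these lie on the plus strand of chromosome 6, TRBV1 from 40891229 to 40891885, TRBV13-2 from 41121396 to 41121832 and TRBJ2-7 from 41543810 to 41543856.

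**Figure D4:**
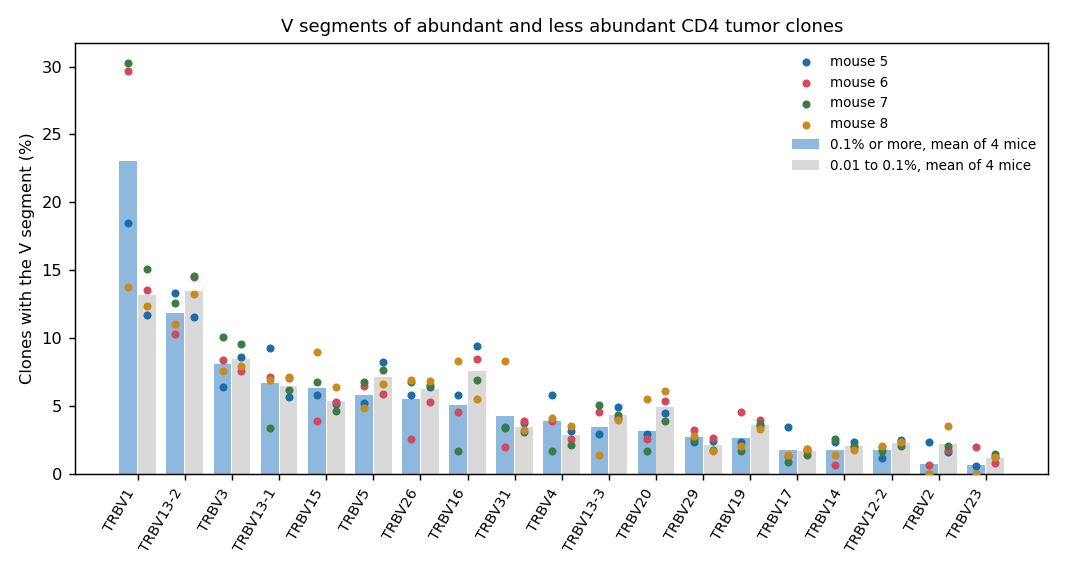
Percent of clones using each V segment (y axis) among selected clones (blue bars) and less abundant CD4+ tumor clones (grey bars), as means of 4 mice with 1 colored point per mouse; V segments with a mean of 1% or more in either class are shown. TRBV1 reached 23.1% in the selected and 13.2% in the less abundant clones, with mouse values from 13.8% to 30.3% in the former.

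The ratio of tumor over dLN frequency differed in size between V segments, which is described here without a test and for segments picked after their values were seen. Clones with TRBV20, TRBV14, TRBV15 and TRBV13-1 had median ratios of 26.1, 22.3, 19.3 and 14.9 over the clones listed in a dLN. These segments had 19, 10, 37 and 41 clones in all, of which 5, 2, 5 and 9 were in neither dLN and enter no median. The 3 listed clones with TRBV23, all from mouse 6, had a median of 0.544 and were more frequent in the dLNs, and the only TRBV23 clone of mouse 5 was in neither. Those with TRBV4 had a median of 1.51, 9 of 24 were more frequent in the dLNs and 0 were in neither dLN. TRBV1 and TRBV13-2, at 5.51 and 5.22, were near the median of all selected clones. The medians per mouse varied: TRBV20 ranged from 10.4 in mouse 5 to 134 in mouse 6 on 2 to 8 clones a mouse, TRBV14 from 1.02 in mouse 6, on 1 clone, to 35.8 in mouse 8, TRBV15 from 4.08 in mouse 7 to 24.9 in mouse 8, TRBV13-1 from 2.44 in mouse 7 to 34.8 in mouse 6, and TRBV4 from 1.16 in mouse 5 to 12.4 in mouse 7, where only 2 clones used it.

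CDR3 length was lower in the selected than in the less abundant clones of every mouse, by an amount that did not pass the test after adjustment. The mean length was 13.6 ± 0.0612 amino acids (SD, n = 4 mice), from 13.50 to 13.64, against 13.7 ± 0.0595, from 13.65 to 13.79, and the ranges did not overlap. The difference was -0.151 amino acids (exact permutation test over 70 assignments, two-sided, p = 0.0286, the smallest it allows; adjusted p = 0.0694), with lower values in 4 of 4 mice. Pairing by mouse gave an exact p of 0.125. Lengths ran from 10 to 18 with a median of 14. Of the selected clones 7.60% had 11 amino acids, against 4.20% of the less abundant clones, and 25.5% had 14, against 30.2%. Clones in both dLNs, in the left alone, in the right alone and in neither had mean lengths of 13.60, 13.76, 13.30 and 13.38.

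CDR3 that resembled each other recurred between mice. A pair was called similar when both clones used the same V segment and CDR3 length and differed at 1 or 2 amino acids. Of 2514 pairs of selected clones from different mice with the same V segment and length, 131 (5.21%) were similar, and of 878 such pairs within a mouse, 49 (5.58%) were. Among the less abundant clones the shares were 2.70% of 134754 pairs between mice and 2.61% of 45489 within a mouse. Pairs share clones and are not independent, so the shares are given without a test. The shares within a mouse and between mice were close in both classes.

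In all, 140 of the 592 clones (23.6%) had a similar clone in another mouse: 38 in mouse 5, 38 in mouse 6, 29 in mouse 7 and 35 in mouse 8. TRBV1 was used by 55 of them, TRBV16 by 19 and TRBV13-2 by 17. Their mean CDR3 length was 13.1 amino acids against 13.7 in the other selected clones, with 6.75 against 9.18 bases between the V and J segments. In the dLNs, 78.6% against 77.7% were listed in both dLNs, and the median ratio of tumor over dLN frequency was 4.81 against 5.54. Linking similar pairs gave 40 groups, 27 over 2 mice, 9 over 3 and 4 over all 4 mice. Because groups were linked pair by pair, clones in 1 group may differ at more than 2 amino acids.

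Of the clones in the 4 groups found in all 4 mice, all but 1 were listed in both dLNs. The largest held 10 TRBV1 clones of 14 amino acids, all listed in both dLNs, with ratios from 0.443 to 20.1 and a median of 2.88. A TRBV1 group of 12 amino acids had 7 clones, all in both dLNs, with ratios from 1.54 to 7.27 and a median of 2.20, and a TRBV1 group of 15 amino acids had 5 clones, 1 of them in neither dLN, with ratios from 1.72 to 7.80 and a median of 2.54 over the listed clones. The TRBV3 group printed above had 5 clones, all in both dLNs, with ratios from 0.662 to 2.53. In that group, M6c35 and M5c54 differed by S9G and Q10R, counted from 1 at the conserved cysteine with the residue of M6c35 first, and M8c56 and M7c48 were the same nucleotide sequence in different mice. M8c56 was at 0.295% and 0.377% in the left and right dLN and 0.222% in the tumor, and M7c48 at 0.222%, 0.145% and 0.180%.

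The TRBV13-1 group of 11 amino acids had higher ratios. It had 10 clones, 6 in mouse 5 and 2 each in mice 6 and 8, and 2 were listed in both dLNs, 1 in the left alone, 4 in the right alone and 3 in neither. The 7 listed clones had ratios from 24.4 to 170, with a median of 100.2. That median is the value of M5c135, which had 8 reads in the right dLN alone. M8c87, M6c31 and M5c96 had 24, 61 and 76 reads in 1 dLN each. The 2 clones listed in both dLNs, M8c2 and M5c59, had ratios of 37.2 and 24.4. Its most frequent clone, M8c2, was at 1.33%, 1.22%, 0.981% and 1.11% in the tumor fragments and at 0.0183% and 0.0440% in the left and right dLN. M6c14, which differed from it by P6A, T8E and L9Q, was at 0.492% in the tumor and had 66 reads in the right dLN and 0 in the left. M5c166, which differed from M8c2 by L9Q alone, was at 0.106% in the tumor and in neither dLN. The groups printed were picked after their values were seen, and the contrast between them is a description.

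The TRBV13-2 group of 14 amino acids included M5c3 and M7c13, the selected clones with the highest dLN frequencies of their mice. They differed by A8G alone but by 9 bases and in the J segment. M8c46 differed from M5c3 by D5E, through 1 base, and was at 0.257% in the tumor and at 0.150% and 0.127% in the dLNs. M7c103 carried the same amino acids as M5c3 with 1 changed base, and was at 0.112% in the tumor and at 0.140% and 0.147% in the dLNs. Of the 7 clones, 6 were in both dLNs, with ratios from 0.778 to 3.34, while M8c108, which differed from M5c3 by P6A, G7Q and A8G, had 17 reads in the right dLN alone.

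**Figure D5:**
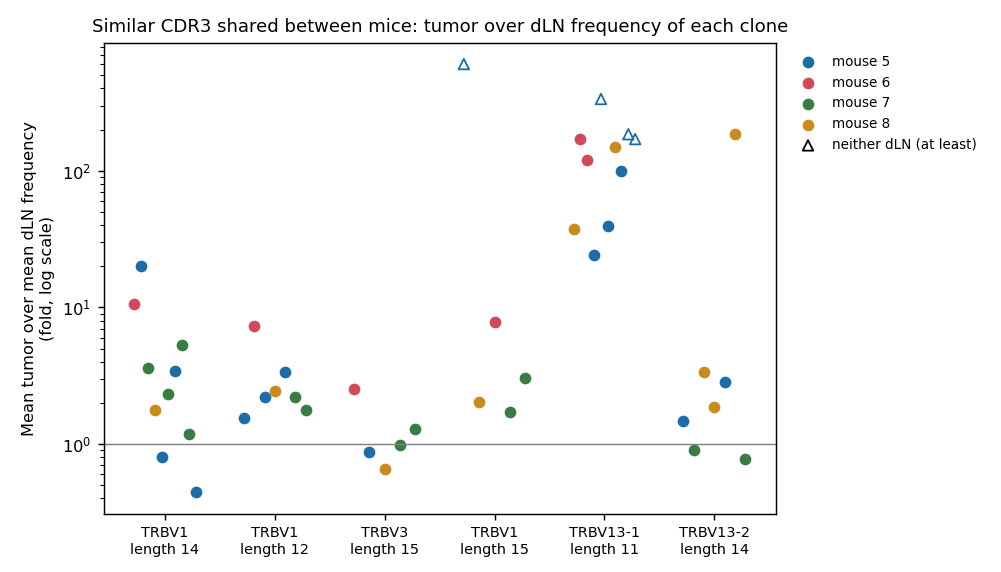
Ratio of mean tumor over mean dLN frequency (y axis, fold, log scale) of each clone in 6 groups of similar CDR3, coloured by mouse. Groups are named by V segment and CDR3 length in amino acids. Open triangles are clones in neither dLN, with the limit of 3 reads in place of the dLN frequency. The listed TRBV13-1 clones lie between 24.4 and 170 and the TRBV3 clones between 0.662 and 2.53.

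Some clones were the same at the nucleotide level in more than 1 mouse. There were 6 such clones among the selected ones, 2 in 3 mice and 4 in 2, and 44 selected clones shared the V segment and the amino acid CDR3 with a selected clone of another mouse. Of pairs of selected clones with the same V segment and length, 1.71% between mice and 1.59% within a mouse had identical amino acids. Among the less abundant clones these shares were 0.203% and 0.174%, and the difference was not tested. The nucleotide sequences found in 3 mice are shown because none of the selected clones was the same in all 4, with capitals again for the bases between the V and J segments.
TRBV31/TRBJ1-3 (M5c20, M6c8, M8c75): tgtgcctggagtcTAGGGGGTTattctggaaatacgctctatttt
TRBV1/TRBJ2-4 (M5c40, M6c147, M7c92): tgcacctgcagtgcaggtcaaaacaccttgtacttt

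The TRBV31 clone was at 0.480% in the tumor of mouse 5, 0.634% in mouse 6 and 0.172% in mouse 8. Its dLN frequencies were 0.437% and 0.194% in the left and right dLN of mouse 5, 0.363% and 0.326% in mouse 6, and 0.0683% and 0.0486% in mouse 8. The same amino acid CDR3 with TRBV31 and TRBJ1-3 was also selected in mouse 7, as M7c43, which differed from it by 2 bases and was at 0.192% in the tumor and at 0.170% and 0.251% in the dLNs, and in mouse 5 as M5c8 and M5c128. The TRBV1 clone, which has no base between the V and J segments, was at 0.305%, 0.104% and 0.119% in the tumors of mice 5, 6 and 7. In the left and right dLN it was at 0.193% and 0.0842% in mouse 5, 0.0806% and 0.0438% in mouse 6, and 0.00748% and 0.101% in mouse 7. Both clones were thus listed in both dLNs of every mouse in which they were selected. Across the series, 70 selected clones were listed in a CD4+ tumor library of another mouse, 9 were more frequent in some library of another mouse than in their own tumor, and 0 were 100 times more frequent there. No share of less abundant clones is given beside the 70, which is therefore a count only. Carry-over between libraries was not tested.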

How the data were processed

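TCRβ repertoires of sorted CD4+ T cells were read from 16 tumor and 8 dLN libraries of 4 mice. The authors amplified TCRβ by template switching and nested PCR without molecular identifiers, trimmed reads with cutadapt 3.2 (per the labels) and assigned V, J and CDR3 with MiXCR against IMGT segments. The deposited files give, per clone, a read count and its fraction of the reads of the library, before any drawing to equal depth. The genome build is not given in the sources used here, and segment positions come from the GENCODE annotation of GRCm38. Reads are not independent molecules, so intervals (exact, 95%) and the limit of 3 reads for an unlisted clone cover counting error only. Left and right libraries of a mouse come from the same animal by the labels, and the deviations of left and right dLN shares from their means correlated at r = 0.953 (n = 4).

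The members and comparison lists were chosen with earlier results of these data known. Clones were named by rule: in each mouse the 3 highest in the tumor, the highest in the dLNs and the highest in neither dLN, then clones of similar CDR3 groups spanning the most mice, and the most common or most differing segments. The 3 groups whose sequences are printed were picked after their values were seen. Group values were compared across mice by exact permutation tests, with Benjamini-Hochberg adjustment over 5 tests and separately over 31 segments. Of the 5, the comparison of tumor sides used tumor frequencies that chose the clones, so its p is not reported. Left and right dLNs were compared per clone with Fisher's exact test on estimated cells, the fraction times the number of sorted cells, with Storey q-values. The tests were also run on simulated data with known answers. With the dLN clones of mouse 6, the left-right call found 24 of 100 clones raised 4-fold in the left dLN. It found 95 of 100 raised 10-fold and called 0 of 22192 that were not raised. Alternatives were the threshold, read drawing, clone definition, listing minimum, the comparison class, the mouse as a replicate block and leaving out each mouse. The scripts used Python 3.11.15, scipy 1.17.1 and pandas 2.3.3. CD8+ libraries served only to check the CD4 label.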

Additional observations from a re-analysis of the deposited data

Results flagged for a closer look

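In the left dLN of mouse 5, the selected clones took 17.1% of the reads, against 8.90% to 10.2% in the left dLNs of the other 3 mice, a gap of 0.844 of the range over the 4 mice. Mouse 5 also had 17 selected clones that differed between its dLNs, against 4 to 6 in the other mice, a gap of 0.846 of the range. These were 2 of 12 sets of 4 mouse values examined, and chance flags about 1 in 20 such sets. The right dLN of mouse 5 was the shallowest CD4+ dLN library, with 326582 reads. Drawing all dLNs to that depth gave 32 such clones over the 4 mice in place of 31. The call rests on frequency times sorted cells, which drawing reads changes little. A cause of the values of mouse 5 was not tested.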

How the results depend on the processing

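With 4 mice, the smallest exact two-sided p was 0.0286, or 0.125 when mice formed a replicate block, and leaving out a mouse gave values without a test. With the replicate block, the listing difference of 15.8 points and the length difference of -0.151 both had an exact p of 0.125, and the block changed no other call. The length difference was -0.159 (exact permutation p = 0.0571) in libraries drawn to 6 reads per sorted cell, and -0.0674 (exact permutation p = 0.286) at a threshold of 0.05%. It was larger, -0.363, against all tumor clones under the threshold and -0.351 with lengths weighted by tumor frequency, and the listing difference against all tumor clones under the threshold was 70.8 points (exact permutation p = 0.0286 for each). The tumor-side difference changed sign to -4.75e-05 in drawn libraries and to -0.0365 with clones defined by amino acids. It was 0.119 with listing from 1 estimated cell, 0.0676 at a threshold of 0.05% and 0.0513 with listing from 4 reads. It gave no value at a threshold of 0.2%. Thresholds of 0.05% and 0.2% gave 1242 and 233 clones, of which 54 and 20 differed between dLNs. Leaving out each mouse gave 14 to 27 differing clones, 14 being without mouse 5. Over the leave-out settings, listing ran from 14.9 to 17.3 points, own against other dLNs from 84.7 to 86.6, the left minus right share from 0.634 to 2.22, length from -0.197 to -0.120, the tumor-side difference from -0.101 to 0.0828, and the share in neither dLN from 7.50% to 10.4%. Own against other listing ran from 74.6 to 88.7 points over the alternatives. Its p was 0.0417 (exact permutation test) in each tested alternative, the smallest it allows, so the p could not show a larger difference. Removing clones as frequent in CD8+ tumor libraries, or 100 times more frequent in another mouse, removed 0 clones. Drawing dLNs to equal reads was chosen after seeing the data. The causes of these changes were not tested.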

Other observations

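M7c1 and M7c2, the 2 largest clones of mouse 7, are set side by side here, a pair picked after their values were seen. The frequency of M7c2 over that of M7c1 was 0.955 and 0.921 in the left fragments and 0.891 and 0.908 in the right ones. In the left dLN the ratio was 0.885 and in the right dLN 1.24.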
